A study of Mus musculus with 22 samples.

Results

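The cells described here were barcodes that passed a rule for fibroblasts of the universal type, which carry Pi16, Dpt, Clec3b or Mfap5. They came from pooled solid organs of adult mice without tumours. They were chosen from the counts themselves. A barcode of a hashtagged tissue library was a member if it had at least 200 detected genes, at most 25% mitochondrial unique molecular identifiers (UMIs, 1 per captured transcript), a UMI of at least 2 of Col1a1, Col1a2, Dcn and Lum, at least 1 UMI of Pi16, Dpt, Clec3b or Mfap5, and no UMI of Ptprc, Pecam1, Epcam, Npnt, Itga8 or Msln. This rule took 1315 of 93055 barcodes that passed the gene and mitochondrial limits in 11 tissue libraries (1.41%), and 0 of 2788 passing barcodes in the other 11 libraries of blood cells. Of the members, 1001 came from the 9 libraries with a genotype group and 314 from a pair of libraries whose title and strain entry named different genotypes. Not all members were clear fibroblasts, since 284 (21.6%) fell in clusters led by genes of other lineages.

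Each tissue library pooled kidney, liver, lung and stomach with epididymis in males or uterus in females, and organs could not be told apart here because the hashtag counts were not used. All mice carried Prom1-CreERT2, a tamoxifen-inducible Cre driven by Prom1, and the Cre-dependent ZsGreen reporter Rosa26ZSG. They were wild type (wt), heterozygous (Nalcn-het) or null (Nalcn-null) for Nalcn, the sodium leak channel gene, whose conditional allele is lost only where Prom1 drives Cre. Recombination in the members was not measured. The wt group held 5 libraries, replicates 1 to 5, from mice of 571, 571, 608, 611 and 654 days, the first 3 male and the last 2 female. Both het libraries came from males of 551 days. The null group held replicate 2, a male of 552 days, and replicate 3, labelled female with uterus, of 611 days, whose genotype is given by its strain entry and not by its title. Its members went against that label, with both Xist and Y-linked UMIs and with transcripts of the epididymis, so the null calls and list medians are also given without it. The pair without a group were a male of 610 days and a female of 647 days. The labels name no animals, and wt replicates 1 and 2 and the het libraries share age and sex, so p-values measure the spread between libraries, which may be technical in part.

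Universal fibroblasts line the adventitia of vessels and the connective tissue sheaths and capsules of many organs. They secrete collagens, proteoglycans and microfibrils, hold growth factors in that matrix, make complement and chemokines that call in leukocytes, and are regarded as a reserve from which more specialised fibroblasts arise. Pi16, a peptidase inhibitor, and Dpp4, a peptidase, mark the subset described around large vessels. Col15a1, a basement membrane collagen, marks the subset described in the parenchyma. Position in the tissue was not measured.

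The depth of a member was moderate. The median member had 1823 UMIs (506 to 25177) and 925 genes, and library medians ran from 984 UMIs in null replicate 2 to 5276 in wt replicate 5. Members made up 0.286% of passing barcodes in wt replicate 1, 0.976% in wt replicate 2, 1.32% in wt replicate 3, 1.09% in wt replicate 4 and 1.74% in wt replicate 5. They made up 3.09% and 1.26% in het replicates 1 and 2, and 2.17% and 1.20% in null replicates 2 and 3. Het replicate 1 stood highest, and the exact 95% interval of its share (2.71 to 3.51%) did not reach that of any other grouped library except wt replicate 5, where 5 members of 287 barcodes left 0.568 to 4.02%. These intervals cover counting error only. The mean share was 1.08% ± 0.533 (SD, n = 5) over the wt libraries. It was 2.18% ± 1.30 (SD, n = 2) over the het libraries and 1.68% ± 0.689 (SD, n = 2) over the null libraries. The differences from wt did not exceed the spread between libraries (exact two-sided permutation p = 0.143 for het and 0.333 for null, where the smallest p that 21 splits allow is 0.0476). At a limit of 20% mitochondrial UMIs the het difference reached that smallest p. Among collagen-positive barcodes without Ptprc, Pecam1 or Epcam, members made up 47.2, 68.7, 69.2 and 57.0% in wt replicates 1 to 4. They made up 100% in wt replicate 5, which had only 5 such barcodes, 68.6 and 65.4% in het and 57.1 and 61.5% in null. On that scale both differences of the means from wt turned, to -1.40 percentage points in het and -9.10 in null. The wt mean includes the 100% of wt replicate 5, and these signs were not tested without it. Each het and null value lay inside the range of wt replicates 1 to 4 (47.2 to 69.2%).

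**Figure D1:**
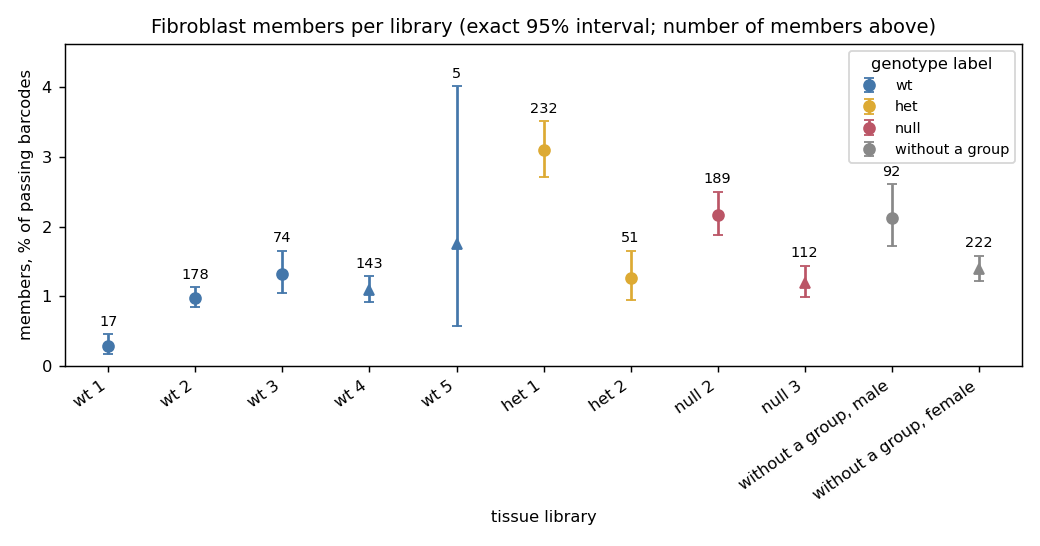
Share of members among passing barcodes (y axis, percent) in each of the 11 tissue libraries (x axis), with exact 95% intervals and the number of members above each point. Circles are libraries labelled male and triangles female, and colours give the genotype label. Het replicate 1 stands highest at 3.09% and wt replicate 1 lowest at 0.286%.

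The rule's own genes describe the members and are given without a test. Dcn, a collagen-binding proteoglycan, was found in 99.5% of members, Col1a2 in 82.1%, Clec3b in 76.7%, Lum in 68.4%, Dpt in 66.2%, Col1a1 in 61.6%, Mfap5 in 54.3% and Pi16 in 33.5%. All 4 of Pi16, Dpt, Clec3b and Mfap5 were found together in 245 members, and a single one of them in 379. At the edge of the rule, 350 members had exactly 2 of the collagen and proteoglycan genes and 211 rested on 1 UMI of the universal genes. Just outside it, 205 barcodes had 1 collagen or proteoglycan gene, 382 had no universal gene, and 841 met both conditions but held an excluded gene, 291 of them by a single UMI. Droplets carry free RNA, so the share of Ptprc-positive leukocyte barcodes with a UMI gives the background. After thinning each barcode to 500 UMIs, Dcn was found in 96.0% of members against 1.5% of leukocyte barcodes and Pi16 in 17.1% against 0.9%. The rule chose members by these genes and did not choose leukocyte barcodes so. The contrast was therefore set in part by the rule, and only the leukocyte shares describe the background. The median depths before thinning were 1823 and 2357 UMIs.

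Levels are given as CPM, a gene's UMIs scaled to a common total over all member UMIs of the library. A UMI marks 1 transcript end, so no division by length was made. They are given for the 9 libraries with at least 20 members. Dcn stood at 6931, 12527 and 10127 CPM in wt replicates 2, 3 and 4, at 13519 and 17024 CPM in het, at 9309 and 10311 CPM in null, and at 14860 and 11369 CPM in the libraries without a group. Dcn was the highest of the listed genes in 7 of the 9 libraries, while the haemoglobin gene Hbb-bs was higher in wt replicate 2 and the ribosomal RNA-overlapping Gm42418 in wt replicate 4, and the wt and null libraries overlapped. Pi16 was steadier, at 558, 673 and 688 CPM in wt, 379 and 616 CPM in het and 401 and 520 CPM in null. Across the 9 libraries Dpt stood at 971 ± 226 CPM (SD, n = 9), Clec3b at 1484 ± 446 CPM and Mfap5 at 866 ± 162 CPM.

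Wider marker lists were checked against the label. Leaving out the rule's own genes, 14 of 14 adventitial and 9 of 9 pan-fibroblast markers were higher in members than in all other passing barcodes by the median over libraries. Against the 722 other collagen-positive barcodes, which lack Ptprc, Pecam1 and Epcam but failed the rule, 11 of 14 adventitial and 9 of 9 pan-fibroblast markers were higher, and so were 2 of 9 alveolar fibroblast, 1 of 12 smooth muscle and pericyte and 0 of 9 mesothelial markers. These counts carry no test, and those of the adventitial, alveolar and mesothelial lists were set in part by the rule. The comparison holds barcodes that it rejected for Npnt, Itga8 or Msln. It also holds 382 rejected for having no UMI of Pi16, Dpt, Clec3b or Mfap5, of which every member had at least 1. Of the adventitial markers, Cd34 stood at 573 CPM against 188, Ly6a at 948 against 222, Cd248 at 282 against 53.2 and Fbn1 at 511 against 89.3 in the pooled other collagen-positive barcodes. Dpp4 went the other way, at 96.3 CPM against 165, as did Igfbp6 at 1393 against 2181. The glial list reached at most 12.1 CPM in a library and Sox10 was at 0 in all members.

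The 20 genes outside the rule that most set members apart from all other barcodes are given without a test. They were taken from 1679 genes with at least 50 CPM in members of each of the 9 libraries. Sfrp4, a secreted WNT antagonist, led with a median log2 ratio of 7.14 (5.77 to 8.82 over 9 libraries), at 431 CPM in the median library against 2.00. The scavenger receptor Scara5 (6.80), the hyaluronan synthase Has1 (6.37), the hyaluronan-binding Tnfaip6 (6.33) and Col3a1 (6.27) followed. Htra3, Cd248, the eosinophil chemokine Ccl11, Gfpt2, Cilp, Fbn1, the globin Cygb, the matrix metalloproteinases Mmp3 and Mmp2, Fndc1, Col14a1, Myoc, Entpd2, Serpinf1 and Fbln1 had median log2 ratios of 5.61 to 6.17. Each of the 20 was higher in 9 of 9 libraries, which is no separate support, since they were chosen by level and ratio. Against the other collagen-positive barcodes the leading genes were Sfrp4 (3.74), Ly6c1 (3.29), Myoc, Ccl11, Tnfaip6, Htra3, Scara5, Nov, Hk2 and Serpinf1 (2.75). Lowest were Crim1 (-1.93), the monooxygenase Fmo2 (-1.87), Tm4sf1, C2, the chemerin gene Rarres2, Gas6, Crip1, Hspb1, Creg1 and Sdc4 (-1.31), each lower in 9 of 9 libraries. Genes of both directions were again chosen by level and ratio.

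The 18 collagens summed to 6530 to 13899 CPM in a library, and of the 16 that the rule did not use 15 were higher than in other collagen-positive barcodes. Col3a1 stood at 2325 ± 735 CPM (SD, n = 9), Col1a2 at 2166 ± 730 CPM, Col1a1 at 1353 ± 765 CPM and the fibril-associated Col14a1 at 795 ± 264 CPM. Col1a1 was 3215 CPM in wt replicate 2 and 671 to 1788 CPM in the other 8 libraries. Among proteoglycans Lum (1058 CPM), Bgn (1014 CPM) and Ogn (607 CPM) followed Dcn. Fn1 (1073 CPM), the latent TGF-beta binding protein Ltbp4 (671 CPM), Efemp1 (535 CPM) and Fbln1 (514 CPM) led the elastic fibre list with Mfap5. The actin-severing Gsn, which also circulates in plasma, stood at 7931 ± 1756 CPM and had the second highest median of the listed genes.

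Of the list of proteases and inhibitors, the metalloproteinase inhibitor Timp2 stood at 1805 ± 273 CPM (SD, n = 9), Timp3 at 1030 ± 338 CPM and the secreted serpin Serpinf1 at 494 ± 83.8 CPM, and the protease Mmp2, which degrades collagen, at 369 ± 72.5 CPM. Timp2 varied little, from 1309 CPM in wt replicate 2 to 2110 CPM in het replicate 2. Of 17 genes of activated or fibrotic fibroblasts 8 averaged 50 CPM or more, and 11 were higher than in other collagen-positive barcodes. Postn stood at 279 ± 82.1 CPM, Acta2 at 117 ± 148 CPM and Cthrc1 at 11.7 ± 21.1 CPM. Spp1 was 3004 CPM in wt replicate 2 and 13.8 to 295 CPM elsewhere. It was highest in a group of 69 members led by myeloid genes (cluster 6 below), at 6969 CPM against 304 CPM in other members. Of these 69 members, 27 came from wt replicate 2. The part of that group in the level of Spp1 was not tested.

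Of 15 complement genes 8 averaged 50 CPM or more, and 4 were higher than in other collagen-positive barcodes. C3, the central complement component, stood at 3268 ± 1045 CPM (SD, n = 9), against 4611 CPM in the other collagen-positive barcodes, and the C1 inhibitor Serping1 at 1633 ± 353 CPM. C3 was found in 62.5% of thinned members against 4.2% of leukocyte barcodes. The neutrophil chemokine Cxcl1 stood at 1444, 606 and 816 CPM in wt, 1557 and 2732 CPM in het, 1721 and 613 CPM in null and 2876 and 1056 CPM in the libraries without a group. For Cxcl1 the null libraries overlapped the wt libraries, and both het libraries lay above them without a call. Ccl2, which draws monocytes, ranged from 285 to 1740 CPM, Ccl7 from 315 to 1634 CPM, and the cytokine gene Il6 from 108 to 654 CPM. Cxcl12, a chemokine that retains progenitor cells, stood at 435 ± 215 CPM and was highest in wt replicate 4 (962 CPM). Of the early response genes, Egr1 stood at 3439 ± 1137 CPM and Fos at 2901 ± 848 CPM. These genes are also induced by enzymatic dissociation, and the part of dissociation in their levels was not tested.

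Promoters are shown for 3 of these inducible genes, Il6, Cxcl1 and Cxcl2. NF-kB, the transcription factor of inflammatory signals, binds sequences of the form GGG, any 3 bases, TTCC. This motif, read on both strands (GGAA, any 3 bases, CCC on the other), was found in 5.56% of 32851 RefSeq promoters of 300 bases. Of 15 chemokine and cytokine genes at 50 CPM or more, 11 had a promoter in the table, and 6 of these (54.5%) held the motif: Il1r1, Csf1, Il6, Cxcl1, Cxcl2 and Cxcl10. Among 13 collagen genes it was found in Col16a1 alone (7.69%). The 250 bases before the start site are given for 3 of them, all on the plus strand of chromosome 5 (GRCm38.p6, RefSeq), with the motif, or overlapping motifs on both strands, in capitals: Il6 at chr5:30012864-30013113, Cxcl1 at chr5:90890995-90891244 and Cxcl2 at chr5:90903649-90903898.
Il6: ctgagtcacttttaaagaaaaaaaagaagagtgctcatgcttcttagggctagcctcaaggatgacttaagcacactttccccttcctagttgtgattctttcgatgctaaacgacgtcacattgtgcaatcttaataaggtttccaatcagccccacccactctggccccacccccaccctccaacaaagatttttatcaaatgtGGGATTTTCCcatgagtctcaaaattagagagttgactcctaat
Cxcl1: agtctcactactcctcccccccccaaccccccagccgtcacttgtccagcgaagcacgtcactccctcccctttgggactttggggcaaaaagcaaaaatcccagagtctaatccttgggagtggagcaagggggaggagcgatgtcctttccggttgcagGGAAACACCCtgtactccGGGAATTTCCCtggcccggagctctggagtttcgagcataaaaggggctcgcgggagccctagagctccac
Cxcl2: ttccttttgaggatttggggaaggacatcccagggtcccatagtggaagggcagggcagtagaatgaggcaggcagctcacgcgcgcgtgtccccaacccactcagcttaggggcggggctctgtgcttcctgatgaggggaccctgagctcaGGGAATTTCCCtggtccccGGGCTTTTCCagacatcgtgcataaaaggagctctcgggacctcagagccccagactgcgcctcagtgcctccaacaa
Cxcl1 and Cxcl2 each held 3 matches and Il6 held 1. A match is a description of the sequence, and binding was not measured.

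Signalling genes included those of the insulin-like growth factor, TGF-beta and WNT systems. The insulin-like growth factor binding proteins Igfbp5 (1471 ± 857 CPM; SD, n = 9), Igfbp6 (1393 ± 549 CPM), Igfbp7 (978 ± 356 CPM) and Igfbp4 (862 ± 191 CPM) far exceeded Igf1 itself (196 ± 62.9 CPM). Igfbp5 varied most, from 395 CPM in the male library without a group to 2953 CPM in wt replicate 3. Thbs1, which can activate latent TGF-beta, stood at 656 ± 298 CPM and the BMP antagonist Nbl1 at 452 ± 164 CPM. The WNT antagonists Sfrp4 (443 ± 223 CPM) and Sfrp1 (316 ± 142 CPM) exceeded Wnt5a (77.5 ± 29.6 CPM). The platelet-derived growth factor receptor Pdgfra, a general fibroblast receptor, stood at 224 ± 60.1 CPM. Apoe (2882 ± 1318 CPM) and Rarres2 (909 ± 191 CPM) led the lipid genes. Of the 52 positional transcription factors, 8 averaged 50 CPM or more, among them Prrx1 (216 CPM), and Nkx2-5 was at 0.

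Nalcn itself was close to absent from members. It gave 16 UMIs in all, in 1.1% of members, at 3.91, 6.06 and 9.56 CPM in wt, 3.80 and 0 CPM in het and 4.83 and 4.41 CPM in null. The channel's partner genes Unc79, Unc80 and Fam155a had no UMI in any member, and Prom1 had 5 UMIs. At this depth Nalcn in these cells gives no check of the genotype labels, and it did not pass the filter for testing.

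**Figure D2:**
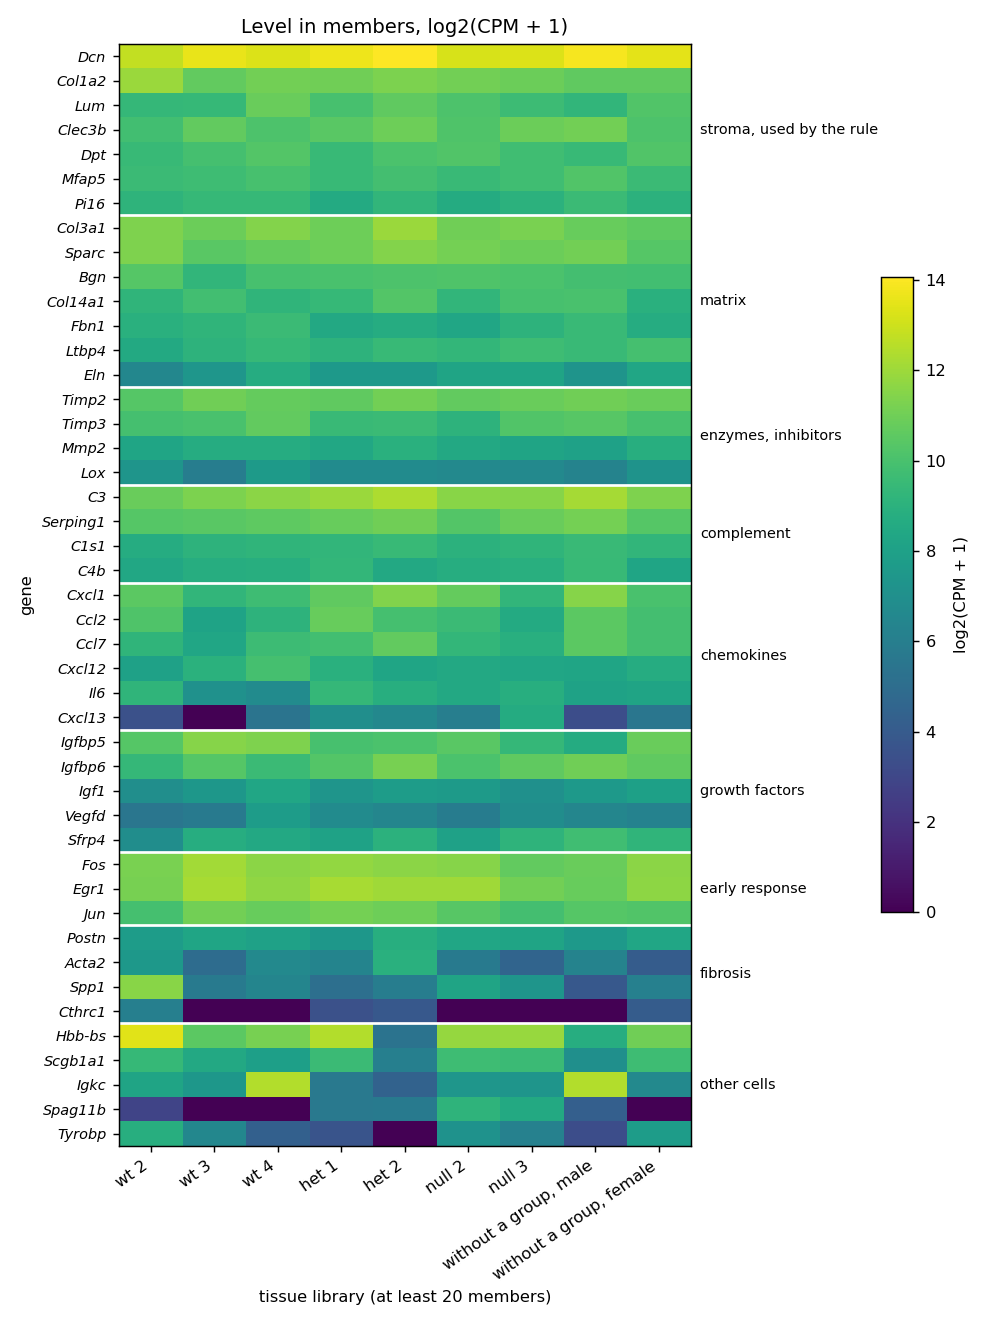
Level of 45 genes (rows) in the members of the 9 libraries with at least 20 members (columns), coloured by log2(CPM + 1), with gene groups at the right. Dcn is bright in every library, Spp1 and Cthrc1 stand out in wt replicate 2, and Spag11b in both null libraries.

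Members were not uniform. Leiden clustering gave 12 clusters, described by their leading genes without a test and without cell type names. Cluster 1 (266 members) was led by Igfbp3, Ifitm1, Maff, Penk and Apod. Cluster 2 (234 members) was led by Nov, Sema3c, Efhd1, Pi16 and Pla1a, with Cd55 and Dpp4 next among the marker genes, and held Pi16 at 1727 CPM against 75.2 to 448 CPM in clusters 1, 3, 4 and 5. Cluster 3 (213 members) was led by Gdf10, Smoc2, the lipoprotein lipase Lpl, Podn and Adm. Cluster 4 (163 members) was led by Apod, the calcification inhibitor Mgp, Pid1, Nr2f2 and elastin (Eln). Cluster 5 (139 members) was led by Cxcl1, the immunoglobulin gene Igkc, Adamts4, Col6a5 and Ccl7, with Cxcl1 at 6335 CPM against 269 to 1406 CPM in clusters 1 to 4. Igkc ranked there through a single member, which held 1205 of its 1305 UMIs, and it was found in 32.4% of the cluster and 28.3% of other members. Dpp4 was found in 26.5% of the 441 Pi16-positive members and 7.21% of the others, while Col15a1 was found in 12.9% and 22.9%, at median depths of 2303 and 1632 UMIs. These shares carry no test, because Pi16 was used by the rule and the depths differ.

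Clusters 6 to 11 held 284 members (21.6%) and were led by genes of other lineages despite the excluded genes. Cluster 6 was led by the myeloid genes Tyrobp, Ctss and Il1b, cluster 7 by the B cell genes Igkc and Cd79a, cluster 8 by the mesothelial genes Upk3b, Lrrn4 and Upk1b, cluster 9 by haemoglobins, cluster 10 by the endothelial genes Ptprb, Cldn5 and Cdh5, and cluster 11 by proximal tubule genes such as Slc27a2 and Miox. Scrublet called 149 of the 1315 members doublets (11.3%) and 15088 of all 93055 passing barcodes. The number called in each library was set beforehand from its barcode count. Clusters 6 to 11 took 62 of 178, 20 of 74 and 31 of 143 members in wt replicates 2, 3 and 4 (21.7 to 34.8%). They took 52 of 189 and 28 of 112 in null and 15 of 232 and 2 of 51 in het (6.47% and 3.92%). In wt replicates 1 and 5 they took 0 of 17 and 3 of 5, and in the libraries without a group 6 of 92 (male, 6.52%) and 65 of 222 (female, 29.3%). Cluster 12 held 16 members, all from wt replicate 2, with a median of 11681 UMIs, and gave 25.9% of that library's member UMIs. Its leading genes were Isg15, Ptn, Ndufa4l2, Cthrc1 and Col11a1, and Col1a1 stood there at 9878 CPM. Without cluster 12, Col1a1 in wt replicate 2 fell from 3215 to 891 CPM and Acta2 from 181 to 31.6 CPM, while Spp1 was 3004 and 3014 CPM.

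**Figure D3:**
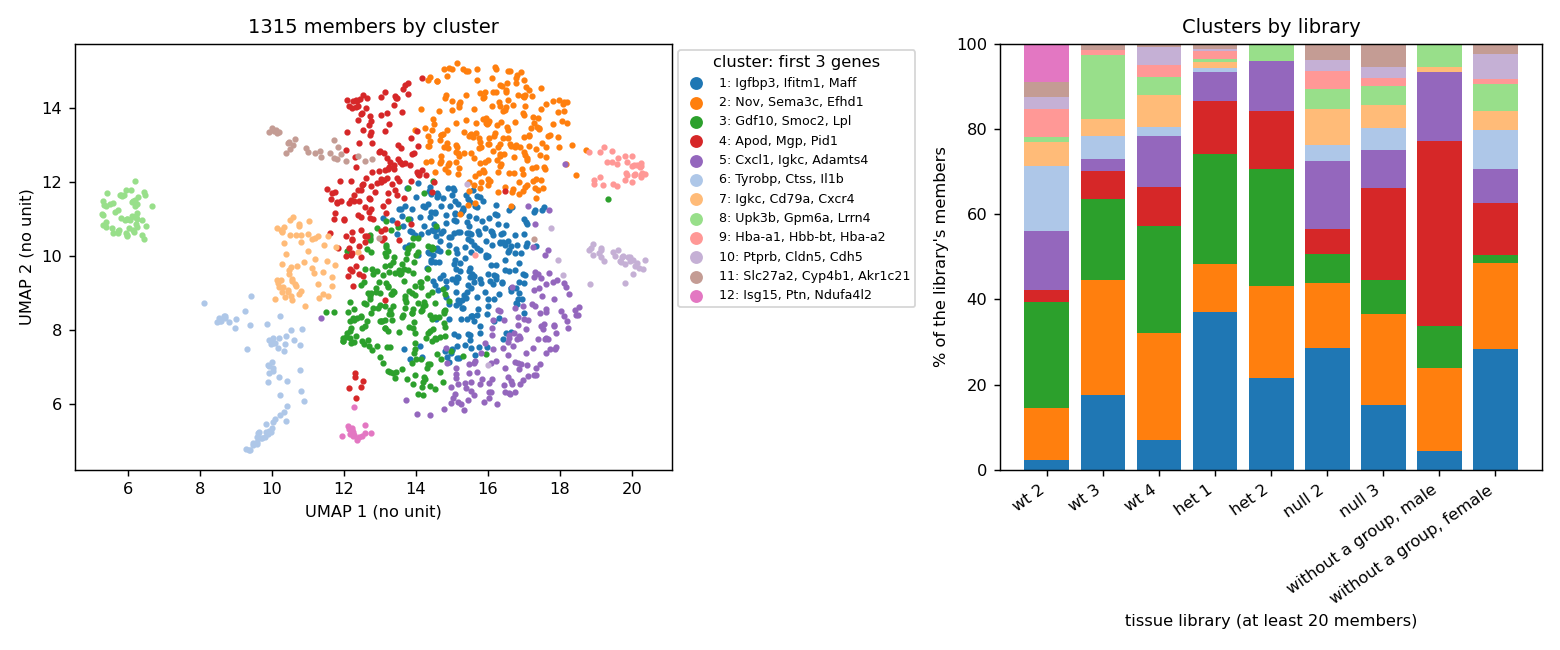
Left, all 1315 members on a UMAP map (axes without a unit) coloured by cluster, with the 3 leading genes of each cluster. Right, the share of each library's members in each cluster (percent) for the 9 libraries with at least 20 members. Clusters 6 to 11 take 3.92 and 6.47% in the het libraries and 21.7 to 34.8% in the wt and null libraries shown. They take 6.52% in the male and 29.3% in the female library without a group. Cluster 12 appears in wt replicate 2 alone.

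The first question was whether members differ between null and wt libraries. Counts were summed per library, since cells of 1 library are not replicates, and wt replicates 2, 3 and 4, both het and both null libraries were fitted together with labelled sex as a covariate (7 libraries, 3 residual degrees of freedom). Of 4073 genes tested in edgeR by quasi-likelihood, with p-values adjusted after Benjamini and Hochberg, 6 were called (0.147%), 5 higher (0.123%) and 1 lower (0.0246%) in null. No matrix, complement, TGF-beta or fibrosis gene was among them, and 166 genes had an unadjusted p under 0.05. Changes of 4-fold placed in simulated counts for this comparison were called in 77.8% of the changed genes tested. The simulation drew all libraries from 1 mean profile and changed 200 genes. Its share does not carry over to the real libraries, where Thy1 at log2 -3.20 was not called.

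Of the 5 higher genes 4 were transcripts of the epididymis. Spag11b, a defensin-like sperm-binding protein of the epididymis (chromosome 8, 19140759 to 19143010, plus strand, mm10), stood at 6.51, 0 and 0 CPM in wt, 49.4 and 53.6 CPM in het and 556 and 366 CPM in null (log2 fold change 7.03 ± 0.52 SE, adjusted p = 4.61e-05). The null libraries lay above all others. Gpx5, an epididymal glutathione peroxidase, stood at 16.9, 0 and 0 CPM in wt and 430 and 419 CPM in null (log2 5.65, adjusted p = 0.00752), and the defensin gene Defb20 at 20.8, 0 and 0 CPM and 353 and 384 CPM (log2 5.15, adjusted p = 0.00392). With DESeq2 both lost their calls (adjusted p = 0.0581 for each). Cst11, an epididymal cystatin, rose from 1 UMI in all wt members to 57 UMIs (log2 6.61, edgeR adjusted p = 0.0189). The last wt value of each gene is wt replicate 4, a female library that pooled uterus and no epididymis. Its other passing barcodes had 0 UMIs of Gpx5, Defb20 and Cst11. With labelled sex as covariate, null replicate 3 was set beside that library. The log2 ratio of CPM + 1 for Spag11b was 8.52 between these 2 libraries. It was 7.03 between null replicate 2 and wt replicates 2 and 3. The values were 8.71 and 5.51 for Gpx5, 8.59 and 4.95 for Defb20. These transcripts were more abundant outside the members. Spag11b in the other passing barcodes stood at 133, 84.3 and 6.37 CPM in wt replicates 2, 3 and 4, 2982 and 5217 CPM in het and 6306 and 6288 CPM in null, and in wt replicate 1, which had too few members for the fit, at 1110 CPM, with 77.6 CPM in its 17 members. Spag11b was found in 7.5% of members and 8.9% of leukocyte barcodes, or 3.04% and 2.38% after thinning to 500 UMIs. A single member held 85 of the 115 Spag11b UMIs in null replicate 2 and another 56 of 83 in null replicate 3. The part of free epididymal RNA in these calls was not tested.

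Null replicate 3 carried these transcripts although it is labelled female with uterus. Its members held 195 Xist UMIs and 53 UMIs of Y-linked genes, in 44 and 33 members and together in 5 of 112, while wt replicate 4, labelled female, had Xist in 140 of 143 members and no Y-linked UMI. Spag11b, Gpx5 and Defb20 were called without this library, when the 1 null library left was assumed to vary like the other groups, and Cst11, Cxcl13 and Jchain lost theirs (edgeR adjusted p = 0.754, 0.472 and 0.403). The other 2 genes called there were lower in null, the neutrophil gene S100a8 (436, 164 and 35.1 CPM in wt, 9.67 CPM in null replicate 2) and Il1rn (edgeR adjusted p = 0.0311 for each). Without null replicate 2 or wt replicate 3 the count of called genes rose from 6 to 18 and 17.

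The one chemokine called was Cxcl13, which attracts B cells (chromosome 5, 95956951 to 95961068, plus strand, mm10). It stood at 10.4, 0 and 41.4 CPM in wt, 123 and 93.8 CPM in het and 62.8 and 406 CPM in null. The het and null libraries all lay above the wt libraries, with a log2 fold change of 3.16 ± 0.46 SE in null (adjusted p = 0.0122) and 3.83 ± 0.48 SE in het (adjusted p = 0.00750). With no sex covariate, a setting of weight here because null replicate 3 goes against its sex label, Cxcl13 lost both calls (edgeR adjusted p = 0.186 and 0.268) and 4 genes were called in null, Spag11b, Gpx5, Defb20 and Cst11. Few cells carried it. In null replicate 3, 91 of 92 UMIs lay in 1 member, in het replicate 1 a single member held 83 of 97, and in het replicate 2 and null replicate 2, 8 of 14 and 8 of 13. Members with a Cxcl13 UMI numbered 6 of 178, 0 of 74 and 5 of 143 in wt, 3 of 232 and 2 of 51 in het and 4 of 189 and 2 of 112 in null. Once the member with most UMIs of each gene was left out of every library, Cxcl13 no longer passed the filter, and 3 genes were called in null, Spag11b, Gpx5 and Defb20. Jchain, the immunoglobulin joining chain of plasma cells, fell from 163 UMIs in wt, 116 of them in replicate 4, to 3 in null (adjusted p = 0.00482), 18.9-fold by pooled counts (exact 95% interval 6.36 to 92.6, counting error only). Without wt replicate 4 this ratio was 7.29 (2.35 to 36.6), and Jchain lost its call there and with no sex covariate (edgeR adjusted p = 1.00 and 0.994).

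The collagen, adventitial, pan-fibroblast, complement, fibrosis and TGF-beta lists gave no call in null. Leaving out the rule's genes, 5 of 15 collagens tested had a positive log2 change, with a median of -0.12 against 0.01 over all genes. With the 16 cells of cluster 12 left out, 9 of 15 were positive (median 0.16), so the sign of the list rests on those cells of wt replicate 2. The rule gene Col1a1 is given as levels alone, at 1718 ± 1297 CPM in wt (SD, n = 3) and 1093 ± 149 CPM in null (SD, n = 2). Without the 16 cells of cluster 12 the wt mean of Col1a1 was 943 ± 51.7 CPM (SD, n = 3), below the null mean. Of 14 adventitial markers 2 were positive and 12 negative (median -0.40), the most negative being Col15a1 at -0.75 ± 0.55 SE, from 289 CPM in wt and 167 CPM in null, where the wt mean without cluster 12 was 172 CPM. Of 9 complement genes 7 were positive (median 0.14), of 9 fibrosis genes 3 (median -0.59) and of 14 TGF-beta pathway genes 10 (median 0.20), each with no call. Without null replicate 3 the medians were -0.33 (16 collagens), -0.49 (14 adventitial markers), 0.02 (10 complement genes), -1.11 (13 fibrosis genes) and 0.03 (17 TGF-beta pathway genes), with no call, and without cluster 12 the fibrosis genes turned to 5 of 9 positive (median 0.31) while the adventitial markers stayed at 2 of 14 (median -0.42). The smallest adjusted p among the pan-fibroblast markers was 0.220, for Thy1, a surface protein of fibroblasts and T cells, at 113, 36.4 and 95.6 CPM in wt and 9.67 and 8.82 CPM in null. The Thy1 libraries did not overlap, on 123 wt and 4 null UMIs, and the fitted log2 change of -3.20 did not pass the adjusted threshold. Thy1 was called in 2 of 19 alternatives, without wt replicate 3 (log2 -3.45, edgeR adjusted p = 0.0104) and with no filter (log2 -3.31, adjusted p = 8.2e-05). It had an adjusted p of 0.714 without null replicate 3 and no longer passed the filter without wt replicate 2.

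**Figure D4:**
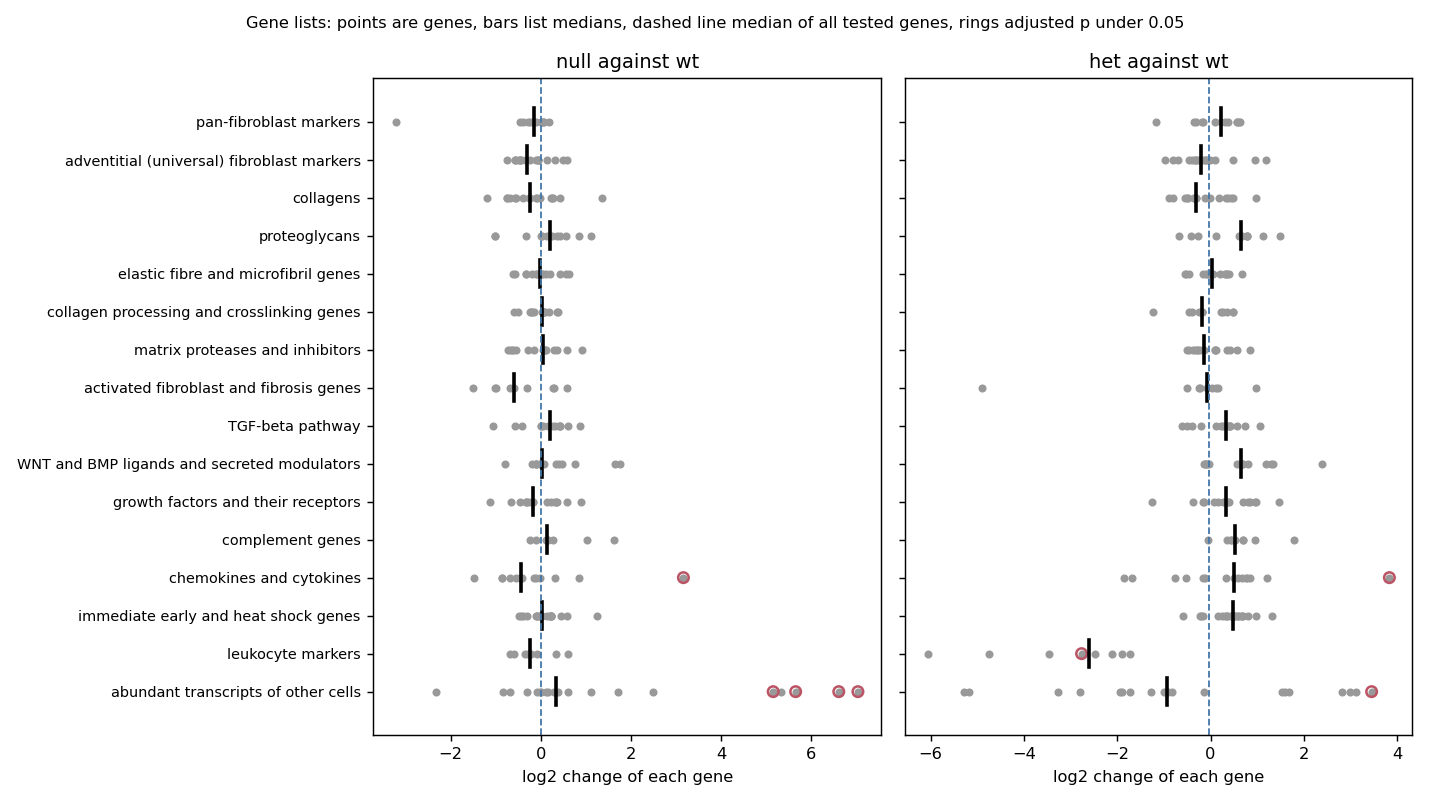
Log2 change of each tested gene (x axis) in null against wt (left) and het against wt (right), by gene list (y axis). Grey points are genes, black bars list medians, rings genes with an adjusted p under 0.05, lists include genes used by the rule, and the dashed line the median of all tested genes. The rings are few in both panels, and the leukocyte list lies wholly below 0 in het, with a median of -2.62.

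In het against wt, 9 of the same 4073 genes were called (0.221%), 2 higher (0.0491%) and 7 lower (0.172%), with the same wt libraries as in the null comparison. The higher genes were Cxcl13 and Spag11b (log2 3.45, adjusted p = 0.0475). The Spag11b call was lost with libraries of at least 5 members (edgeR adjusted p = 0.449), which adds wt replicate 1 at 77.6 CPM, above both het libraries, and Cxcl13 was then the 1 gene called in het. In all, Spag11b lost its het call in 10 of 20 alternatives. Among the lower genes, Slpi, a leukocyte protease inhibitor also made by epithelia, stood at 181, 406 and 519 CPM in wt and 6.34 and 13.4 CPM in het (log2 -5.12 ± 0.58 SE, adjusted p = 0.00444). Single members held 132 of 163 Slpi UMIs in wt replicate 4 and 49 of 67 in wt replicate 3. The 17 members of wt replicate 1, outside the fit, had 0 UMIs of Slpi, Clec4d, Il1rn, Ccl4 and Slc7a11, which allows up to 46.6 CPM each at a floor of 3 counts. The lectin Clec4d and the interleukin-1 antagonist Il1rn of myeloid cells had 1 and 3 UMIs in het against 93 and 115 in wt, or 70.0-fold (exact 95% interval 12.3 to 2795) and 28.9-fold (9.63 to 142) lower by pooled counts. In wt replicate 2 lay 80 of these 93 Clec4d and 96 of these 115 Il1rn UMIs, and without that library the ratios were 25.5 (3.83 to 1083) and 12.4 (3.65 to 65.5). The chemokine Ccl4 had 8 UMIs against 116, Jchain 2 against 163, the cystine transporter Slc7a11 3 against 73 and the leukocyte surface gene Cd52 21 against 201. Of these wt UMIs, replicate 2 held 76 of Ccl4, 54 of Slc7a11 and 152 of Cd52, and replicate 4 held 116 of Jchain. Low levels were not particular to het. Null replicates 2 and 3 stood at 14.5 and 4.41 CPM for Clec4d and 0 and 4.41 CPM for Il1rn. For Ccl4 and for Slc7a11 they stood at 24.2 and 4.41 CPM, for Jchain at 0 and 13.2 CPM. Slpi (58.0 and 115 CPM) and Cd52 (111 and 101 CPM) were higher there than in het. Wt replicate 4 held 6.37 CPM of Clec4d and of Il1rn, 12.7 of Ccl4 and 19.1 of Slc7a11. Of 11 leukocyte markers 8 were tested, all 8 had a negative change (median -2.62 against -0.03 over all genes), and 1, Cd52, was called. The summed list stood at 2675, 1328 and 1405 CPM in wt replicates 2, 3 and 4 and 516 and 254 CPM in het, with Ptprc at 0 by the rule. Outside the fit it stood at 605 and 685 CPM in wt replicates 1 and 5. It was 423 and 1926 CPM in the male and female libraries without a group. The clusters led by other lineages held 6.47 and 3.92% of members in het against 21.7 to 34.8% in wt replicates 2, 3 and 4. Outside the fit they held 0 of 17 and 3 of 5 members in wt replicates 1 and 5. They held 6 of 92 and 65 of 222 in the male and female libraries without a group. The part of members in these clusters in the het calls was not tested beyond leaving them out. With clusters 6 to 11 left out, 3 genes were called, Cxcl13, Spag11b and Nkain4, and without het replicate 1 none was at an adjusted p under 0.05 (the smallest was 0.0850, with 284 genes at an unadjusted p under 0.05). The count moved to 5 without het replicate 2 and to 17, 54 and 73 without wt replicates 2, 3 and 4, and it was 71 and 59 without null replicates 2 and 3, which share the fit. Of the 9 genes, 3 were called without wt replicate 2, Cxcl13, Slpi and Spag11b, while Cd52 had an adjusted p of 0.131 in edgeR and the other 5 no longer passed the filter. Slpi alone was called with no sex covariate.

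The collagen, adventitial, pan-fibroblast, complement, fibrosis and TGF-beta lists gave no call in het. Complement genes had 8 of 9 positive changes (median 0.52), with C3 at 2476 ± 643 CPM in wt (SD, n = 3) and 4483 ± 849 CPM in het (SD, n = 2) and an adjusted p of 0.329. Outside the rule's genes, collagens had 6 of 15 positive changes (median -0.13) and adventitial markers 3 of 14 (median -0.27). Without cluster 12 these were 12 of 15 (median 0.36) and 3 of 14 (median -0.31), so the sign of the collagen list turned. Among WNT and BMP genes Rspo3, a WNT enhancer, had the smallest adjusted p (0.119, log2 2.39 ± 0.54 SE), and 9 of 14 were positive with no call. Without null replicate 3, which shares the fit, 59 genes were called in het, 5 higher and 54 lower. Of the listed genes Rspo3, Cxcl13 and Spag11b were higher, and the lower ones were 6 of 9 leukocyte markers (Tyrobp, Cd52, Laptm5, Lyz2, Fcer1g and Srgn), S100a8, S100a9, Igkc, Krt8, Kap, Cxcl2 and Spp1. Spp1 was high in wt replicate 2 alone, and Cxcl2 in het (174 and 234 CPM) lay inside the wt range (156 to 891 CPM).

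**Figure D5:**
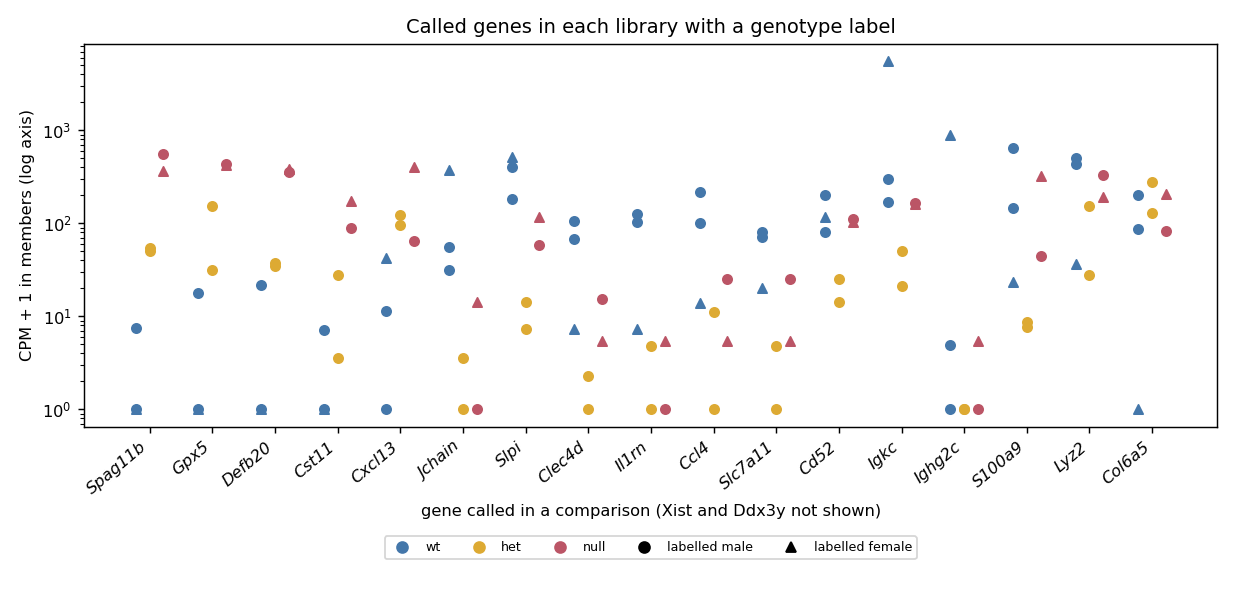
CPM + 1 in members (y axis, log) of each of the 7 grouped libraries with at least 20 members for 17 genes called in a comparison (x axis). Blue is wt, yellow het and red null, circles are libraries labelled male and triangles female. The red points of Spag11b, Gpx5, Defb20 and Cst11 lie above the blue ones, and the yellow points of Slpi, Clec4d and Il1rn below them.

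Female and male members were compared without null replicate 3, which left wt replicate 4 as the only female library against 5 male libraries (6 libraries, 2 residual degrees of freedom), so that it was assumed to vary like the others. With genotype as covariate, the fitted changes rest on wt replicate 4 against wt replicates 2 and 3. The het males add to the estimate of the spread alone. Null replicate 2, the only null library of this fit, is matched by its genotype term and adds no residual degree of freedom. Sex and the pooled reproductive organ, uterus or epididymis, cannot be told apart. Of 5520 genes tested 9 were called (0.163%), 4 higher (0.0725%) and 5 lower (0.0906%) in the female library. Xist (2422 CPM against 1 UMI in 5 male libraries) and Ddx3y (0 against 489 UMIs, at least 24.6-fold lower at a floor of 3 counts over the female library) matched the labels. The immunoglobulin genes Igkc (5506 CPM against 20.1 to 297), Ighg2c (892 CPM against 3 UMIs) and Jchain (370 CPM against 0 to 54.7) were higher in wt replicate 4, where single members held 680 of 1728 Igkc, 158 of 280 Ighg2c and 53 of 116 Jchain UMIs. Without clusters 6 to 11 the log2 change of Jchain was -0.00302. Of the libraries outside the fit, the female library without a group stood at 97.8, 0 and 6.52 CPM for Igkc, Ighg2c and Jchain, female wt replicate 5 (5 members) at 80.6, 0 and 0 CPM, and the male library without a group at 5563, 0 and 441 CPM, where a single member held 1205 of 1211 Igkc and 95 of 96 Jchain UMIs. The myeloid genes Il1rn, S100a9 and Lyz2 were called lower in wt replicate 4 (edgeR adjusted p = 0.0350, 0.0350 and 0.0440), at 6.37, 22.3 and 35.1 CPM, values inside the range of the 5 male libraries (0 to 125, 6.70 to 649 and 26.8 to 503 CPM). In the female library without a group they stood at 74.9, 241 and 453 CPM. Col6a5, a collagen VI chain, was the 1 matrix gene called, and it lost the call with DESeq2, without Scrublet doublets, without clusters 6 to 11, with null replicate 3 and without each gene's richest member. Without a male library the count of called genes lay between 29 and 273, the latter without wt replicate 3 (37, 31, 29 and 29 without wt replicate 2, het replicates 1 and 2 and null replicate 2). Col6a5 stood at 86.0, 200.1, 127, 275 and 82.2 CPM in the male libraries and 0 in wt replicate 4, at least 12.9-fold lower at the same floor (adjusted p = 0.0136). In null replicate 3 it was 207 CPM, and in the libraries without a group 331 CPM in the male and 32.6 CPM in the female. Mean shares of members were 1.42% ± 0.458 (SD, n = 2) in female and 1.52% ± 0.982 (SD, n = 6) in male libraries and did not differ beyond that spread (exact two-sided permutation p = 0.929).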

How the data were processed

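Single cells were profiled by 10x Genomics 3′ sequencing in 22 libraries, of which 11 were hashtagged tissue pools. Cells had been freed with collagenase, and with papain for kidney. The authors deposited filtered matrices of raw UMI counts per gene and barcode on mm10. The labels' processing notes name Cell Ranger 2.1.1 and Seurat, and the matrix headers give Cell Ranger 3.0.2. Hashtag counts were not used here. Coordinates are from GENCODE vM21.

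Members were found by the stated rule, and their counts were summed per library for the 7 grouped libraries with at least 20 members. edgeR 4.0.16 (R 4.3.3; TMM, filterByExpr with a minimum count of 10, quasi-likelihood test, Benjamini-Hochberg threshold 0.05) tested null and het against wt with labelled sex as covariate, and female against male with genotype as covariate. In simulated counts with 200 genes changed 4-fold, 77.8% of changed genes tested were called in the null, 79.3% in the het and 44.9% in the sex comparison. Shares were compared by exact two-sided permutation tests. Clusters came from scanpy 1.11.5 (1500 variable genes, 20 components, Leiden resolution 0.6). Doublets were scored with Scrublet, kept in the results and left out as an alternative. Members against other barcodes are described without a test.

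Named genes were the genes of 30 lists, with up to 6 examples each, up to 10 called genes in each direction per comparison, the 20 genes highest in members by median ratio, 10 in each direction against other collagen-positive barcodes, and 5 leading genes per cluster. The members and lists were chosen with earlier results of these data known. The alternatives were RLE scaling, DESeq2 1.42.0, no filter, stricter limits on mitochondrial UMIs, genes and universal UMIs, the covariate, a replicate block and leaving out each library. Leaving out clusters 6 to 11, cluster 12 or each gene's richest member, and taking libraries with 5 members, were chosen after seeing the data.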

Additional observations from a re-analysis of the deposited data

Results flagged for a closer look

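In 3 cases 1 male library stood apart from the other male libraries of the sex comparison, its gap to the nearest taking more of the range than Dixon's 95% limit. The items tried were the 9 genes called in that comparison and the member shares of wt and of male libraries. Chance gives this in about 1 in 20 groups, a rate that does not carry over to genes chosen from these same libraries. S100a9, a neutrophil calcium-binding protein, was 649 CPM in the members of wt replicate 2, the library with 34.8% of its members in clusters led by genes of other lineages. Ighg2c was 3.91 CPM in wt replicate 2, and Xist was 1.27 CPM, a single UMI, in het replicate 1.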

How the results depend on the processing

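Counts of called genes depended on the processing. For null against wt (6 genes) the count was 36 with no filter, 3 without Scrublet doublets, 3 without each gene's richest member, 4 with no sex covariate, 0 with the replicate block and 5 to 18 when 1 library was left out. For het against wt (9 genes) it was 181 with no filter, 2 without Scrublet doublets, 1 each with 2 universal UMIs, with no sex covariate, with libraries of at least 5 members and without each gene's richest member, 3 without clusters 6 to 11, 15 without cluster 12, 0 with the replicate block and 0 to 73 when 1 library was left out. For female against male (9 genes) it was 5 with DESeq2, 62 with no filter, 3 without Scrublet doublets, 19 with 2 universal UMIs, 2 with null replicate 3, 46 in wt libraries alone, 3 without clusters 6 to 11, 38 without cluster 12, 4 without each gene's richest member and 29 to 273 when 1 library was left out. The cause was not tested.

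Same-numbered libraries did not deviate together (correlations -0.13, 0.04, -0.04 and 0.03 over 4 pairs), so the numbers do not pair them. With the replicate block the smallest edgeR adjusted p was 0.0521 for null and 0.459 for het, with 159 and 359 genes at an unadjusted p under 0.05. No paired analysis was possible for female against male because the number of wt replicate 4 is held by no other library of that fit, and leaving out wt replicate 4 there was not run because it is the only female library.

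As a share of collagen-positive barcodes the difference in members was -9.10 percentage points for null, -1.40 for het and 15.8 for female, each opposite to the share of passing barcodes (0.599, 1.09 and -0.0996). Each of these differences includes female wt replicate 5, at 100% of only 5 collagen-positive barcodes, and was not computed without it. The het difference was 1.47 (exact permutation p = 0.0476) at 20% mitochondrial UMIs. The female difference was 0.0158 with 500 genes and 0.0971 with 2 universal UMIs, and 0.224, 0.216 and 0.0308 without wt replicate 4, het replicate 1 and null replicate 2. Leaving out 1 library gave 0.112 to 1.09 for null, 0.176 to 2.01 for het and -0.423 to 0.224 for female. Jchain in female against male was -0.00302 (log2) without clusters 6 to 11. Of the named genes, Xist and Ighg2c kept their calls in every alternative that gave a value (18 and 17), and Spag11b in null kept its call in 19 of 20, all but the replicate block. The fits had 3 and 2 residual degrees of freedom, and members a median of 1823 UMIs, which limits the precision of each value.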
